A study of Homo sapiens with 6 samples.

Results

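The transcripts of 36 cytosolic and mitochondrial chaperones and co-chaperones were examined in 786-O cells after knockdown of NFE2L3. The members were taken as a list of gene symbols (heat shock proteins, J proteins, subunits of the TRiC chaperonin, co-chaperones and the heat shock factor HSF1). The list was chosen with earlier results of these data known, and each gene was found among the 56303 genes of the count table. All 36 passed the filter on low counts and were tested.

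Chaperones bind unfolded stretches of other proteins and let them fold. HSP70 proteins bind and release client proteins in a cycle driven by ATP, which J proteins start and nucleotide exchange factors such as the BAG proteins and HSP110 complete. Clients can pass to HSP90, whose own cycle is set by co-chaperones, or to TRiC, a ring of different subunits that folds actin and tubulin. Mitochondria hold their own HSP70 (HSPA9), HSP90 (TRAP1) and chaperonin (HSPD1 with HSPE1). Under heat or proteotoxic stress, HSF1 binds heat shock elements in the promoters of many of these genes and raises their transcription.

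The 6 libraries fell into 2 groups of 3. The siNFE2L3 libraries came from 786-O cells given an siRNA against NFE2L3, a CNC-type transcription factor, and are labelled 48 h. The siControl libraries came from 786-O cells given a control siRNA and are labelled WT and 0 h, so effects of the siRNA and of the time in the labels cannot be told apart. Both groups share the background of 786-O, a widely used human cell line from clear cell kidney cancer that lacks a working VHL protein. In the genotype label of the siNFE2L3 replicates 2 and 3 the gene reads NFE2L4 and NFE2L5, and title and source name give NFE2L3. The labels do not say that the libraries came from separate cultures, and a general remark on independent trials in the study's methods does not name the sequencing, so the spread behind the p-values may be technical.

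The total counts ran from 51828446 to 56806368 in the siNFE2L3 libraries and from 53051297 to 57391929 in the siControl libraries. NFE2L3 itself had 1087, 1075 and 1068 reads in the siNFE2L3 libraries, against 6171, 6508 and 6403 reads in the siControl libraries (log2 fold change -2.54, adjusted p = 3.98e-22 from edgeR), so it was lower in each library labelled as knockdown. The kidney factor PAX8 had 10688 to 14131 reads per library, EPAS1, which encodes HIF-2α, 11476 to 13567, and VIM 68007 to 76859, whereas the carbonic anhydrase CA9 had at most 6 reads and NDUFA4L2 22 to 52. Of 12 markers of leukocytes, endothelial cells, fibroblasts and muscle, MYH11 had 537 to 742 reads per library, the other 11 had at most 78, and MS4A1 and CDH5 had none. Among the renal carcinoma markers, the keratins KRT8 and KRT18 fell (log2 fold changes -0.32 and -0.25, edgeR adjusted p = 1.59e-06 and 3.82e-04), as did PAX8 (-0.15, 0.00627), and EPAS1 rose (0.13, 0.0155). Their part in the results was not tested. In bulk RNA, fewer cells of a kind and less RNA per cell cannot be told apart.

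Levels are given as RPKM, the CPM (counts scaled to the TMM-adjusted library size) per kilobase of exon. The length is the total exon length of a gene and not that of a transcript, so levels of different genes compare only roughly. DNAJB6, with 14981 exon bases, had 685 CPM and 45.7 RPKM in siControl cells. CDC37, with 3041 exon bases, had 694 CPM and 228 RPKM there. The highest member was HSP90AB1, the constitutive cytosolic HSP90, with 1004, 1052 and 1033 RPKM in the siNFE2L3 libraries, against 995, 899 and 941 RPKM in the siControl libraries. It was followed in siControl cells by CDC37, HSPA9, HSP90AA1 and DNAJA1, at 145 to 228 RPKM. The stress-inducible HSP70 gene HSPA1A and the small heat shock protein CRYAB were lowest in siControl cells, and HSPA1A was at 3.70 ± 0.0687 RPKM in siNFE2L3 cells and 3.24 ± 0.151 RPKM in siControl cells (SD, n = 3 each). In siNFE2L3 cells BAG2 lay below HSPA1A. CRYAB had only 83 to 112 reads per siNFE2L3 library and 67 to 118 per siControl library. Together the members took 1.147% to 1.174% of all counts in the siNFE2L3 libraries and 1.108% to 1.134% in the siControl libraries, and the groups did not overlap. This separation rested on HSP90AA1 and HSP90AB1, since the other 34 members took 0.7245% to 0.7353% in the siNFE2L3 libraries and 0.7343% to 0.7538% in the siControl libraries.

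After NFE2L3 knockdown the chaperone transcripts moved in both directions and by small amounts. With the edgeR quasi-likelihood test and a threshold of 0.05 for the adjusted p, 10 members were higher, 11 were lower and 15 did not pass. Among all 19916 tested genes, 12.7% were higher, 14% were lower and 26.7% passed in either direction. The members are abundant transcripts, with a median of 148 CPM in siControl cells. Of the 22 members with at least 100 CPM in siControl cells, 8 were higher and 8 lower, against 22.1% higher and 25.8% lower among the 2031 tested genes at that level. The libraries of the groups did not overlap for 25 members, 12 of them higher and 13 lower, against 19.1% higher and 20.4% lower of all tested genes. The median log2 fold change of the members was -0.029 and that of all tested genes -0.0007. No member passed the cutoffs of the study, a fold of at least 2 and an unadjusted p below 0.05, which 1.1% of tested genes passed. With DESeq2 in place of edgeR, no member passed these cutoffs either. The count of lower members was 7 with upper quartile scaling, against 10 higher. It was also 7 without siNFE2L3 replicate 1, without siNFE2L3 replicate 3 and without siControl replicate 3. In that order, these fits without 1 library called 4308, 4176 and 4357 of all tested genes, against 5320 with all 6 libraries.

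**Figure D1:**
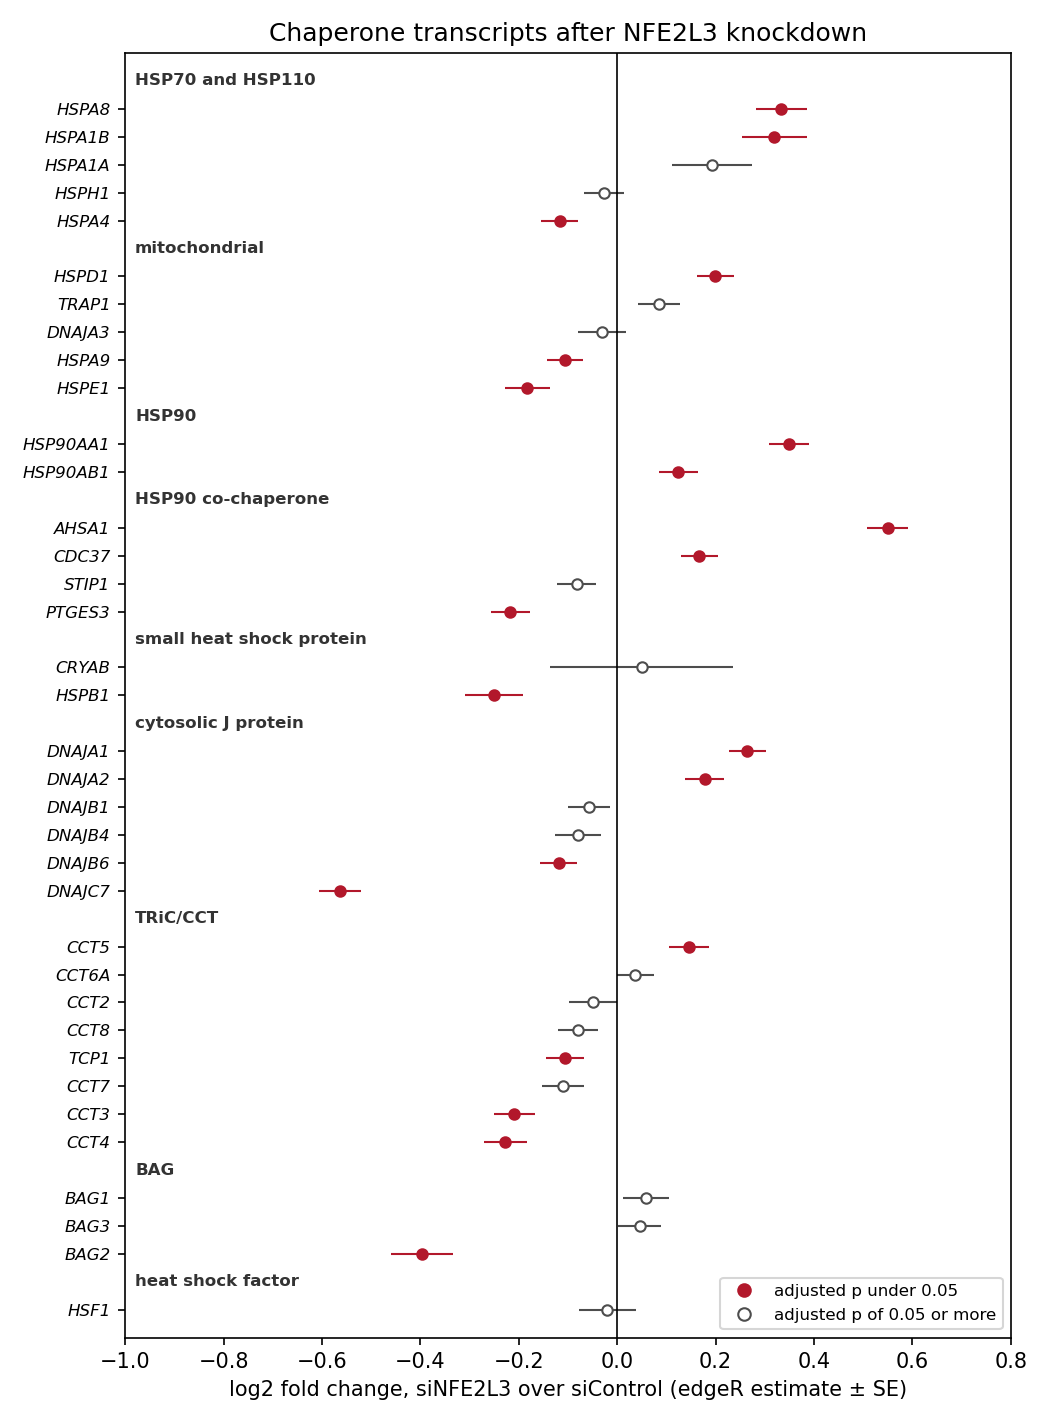
Log2 fold change of each of the 36 members (x axis, siNFE2L3 over siControl, n = 3 libraries each) by role; points are edgeR estimates, bars their standard errors, and red filling marks members that passed the test at 0.05. The estimates run from -0.56 for DNAJC7 to 0.55 for AHSA1, with both HSP90 genes on the right and 6 of 8 TRiC subunits on the left.

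Both HSP90 genes and the activator of their ATPase were higher in siNFE2L3 cells. AHSA1, which encodes that activator (Aha1), showed the largest rise of the members. The gene spans 77457870 to 77469474 of chromosome 14 (GRCh38) and had 49.3, 47.7 and 49.5 RPKM in the siNFE2L3 libraries, against 32.4, 34.8 and 32.9 RPKM in the siControl libraries. Every siNFE2L3 library lay above every siControl library, and the mean was 146% of control (log2 fold change 0.55, standard error 0.0415, adjusted p = 3.67e-10 from edgeR). HSP90AA1, the inducible cytosolic HSP90 on the same chromosome from 102080738 to 102139699, had 230.4, 252 and 246 RPKM in the siNFE2L3 libraries, against 197, 189 and 185 RPKM in the siControl libraries. The groups did not overlap, and the rise was to 127% of control (log2 fold change 0.35, standard error 0.0404, adjusted p = 3.60e-07 from edgeR). HSP90AB1 was higher by less (log2 fold change 0.12, adjusted p = 0.0209 from edgeR). Its call was lost without siNFE2L3 replicate 2 (adjusted p = 0.0949 from edgeR), siNFE2L3 replicate 3 (0.0811), siControl replicate 2 (0.128) and siControl replicate 3 (0.0548).

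The ratio of HSP90AA1 to HSP90AB1 in RPKM, which does not depend on the scaling of the libraries, was 0.229, 0.240 and 0.238 in the siNFE2L3 libraries, against 0.198, 0.210 and 0.197 in the siControl libraries. The ratio was thus higher in each knockdown library (p = 0.1 in a two-sided exact permutation test, and no smaller p can be had with 3 libraries against 3).

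The other HSP90 co-chaperones did not share a direction. CDC37, which brings protein kinases to HSP90, was at 256 ± 6.12 RPKM in siNFE2L3 cells and 228 ± 4.96 RPKM in siControl cells (SD, n = 3 each), a rise with an adjusted p = 0.00155 from edgeR. PTGES3, which encodes p23, a co-chaperone that binds the closed, ATP-bound form of HSP90, had 43.4, 43.0 and 44.7 RPKM in the siNFE2L3 libraries, against 49.7, 51.3 and 51.4 RPKM in the siControl libraries. Its groups did not overlap, and it fell to 86.0% of control (log2 fold change -0.22, standard error 0.0393, adjusted p = 1.51e-04 from edgeR). STIP1, the HOP protein that links HSP70 to HSP90, did not pass (log2 fold change -0.08, adjusted p = 0.137 from edgeR).

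Among the cytosolic HSP70 genes, the constitutive HSPA8 and the inducible HSPA1B rose. HSPA8 lies on chromosome 11 from 123057489 to 123063230 and had 31.2, 32.0 and 33.1 RPKM in the siNFE2L3 libraries, against 28.3, 23.6 and 24.5 RPKM in the siControl libraries. All siNFE2L3 libraries were above all siControl libraries, of which replicate 1 was the highest (log2 fold change 0.33, standard error 0.0516, adjusted p = 2.20e-05 from edgeR). HSPA1B, on chromosome 6 from 31827735 to 31830255, had 19.7, 21.3 and 23.8 RPKM in the siNFE2L3 libraries, against 19.5, 16.2 and 16.1 RPKM in the siControl libraries. The groups came close, with siNFE2L3 replicate 1 only just above siControl replicate 1 (log2 fold change 0.32, standard error 0.0661, adjusted p = 6.67e-04 from edgeR). HSPA1A, its near-identical neighbour from 31815464 to 31817946, had a log2 fold change of 0.19 that did not pass (adjusted p = 0.0816 from edgeR), although its libraries did not overlap.

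Reads of these copies cannot be told apart with certainty, since the sources do not say how reads with several matches were counted. The sum of HSPA1A and HSPA1B was 3297, 3529 and 3546 reads in the siNFE2L3 libraries, against 3061, 2818 and 2696 reads in the siControl libraries. The summed pair was higher in siNFE2L3 cells (log2 fold change 0.30, standard error 0.0608, adjusted p = 5.32e-04 from edgeR). HSPA8, HSPD1 and HSPE1 have 17, 15 and 26 rows of numbered pseudogenes in the table, which together held means of 14.6, 182.0 and 31.0 reads in siNFE2L3 cells and 18.7, 181.0 and 24.4 reads in siControl cells. The level of HSPA8, HSPD1 and HSPE1 against other members is uncertain for the same reason.

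HSPA4 and HSPH1, members of the HSP110 family that exchange nucleotide on HSP70, showed no rise. HSPA4 was lower, at 89.4 ± 1.79 RPKM in siNFE2L3 cells and 97.0 ± 0.932 RPKM in siControl cells (SD, n = 3 each, log2 fold change -0.12, adjusted p = 0.0201 from edgeR). This call was lost without siNFE2L3 replicate 1 (adjusted p = 0.097 from edgeR), siNFE2L3 replicate 3 (0.0575) and siControl replicate 3 (0.051), and with upper quartile scaling (0.0669). HSPH1 was at 12.7 ± 0.300 RPKM in siNFE2L3 cells and 12.9 ± 0.145 RPKM in siControl cells (SD, n = 3 each) and did not pass (log2 fold change -0.03, adjusted p = 0.678 from edgeR). The ratio of HSPA8 to HSPH1 in RPKM was 2.43, 2.60 and 2.58 in the siNFE2L3 libraries, against 2.18, 1.82 and 1.93 in the siControl libraries, again without overlap (two-sided exact permutation test, p = 0.1).

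**Figure D2:**
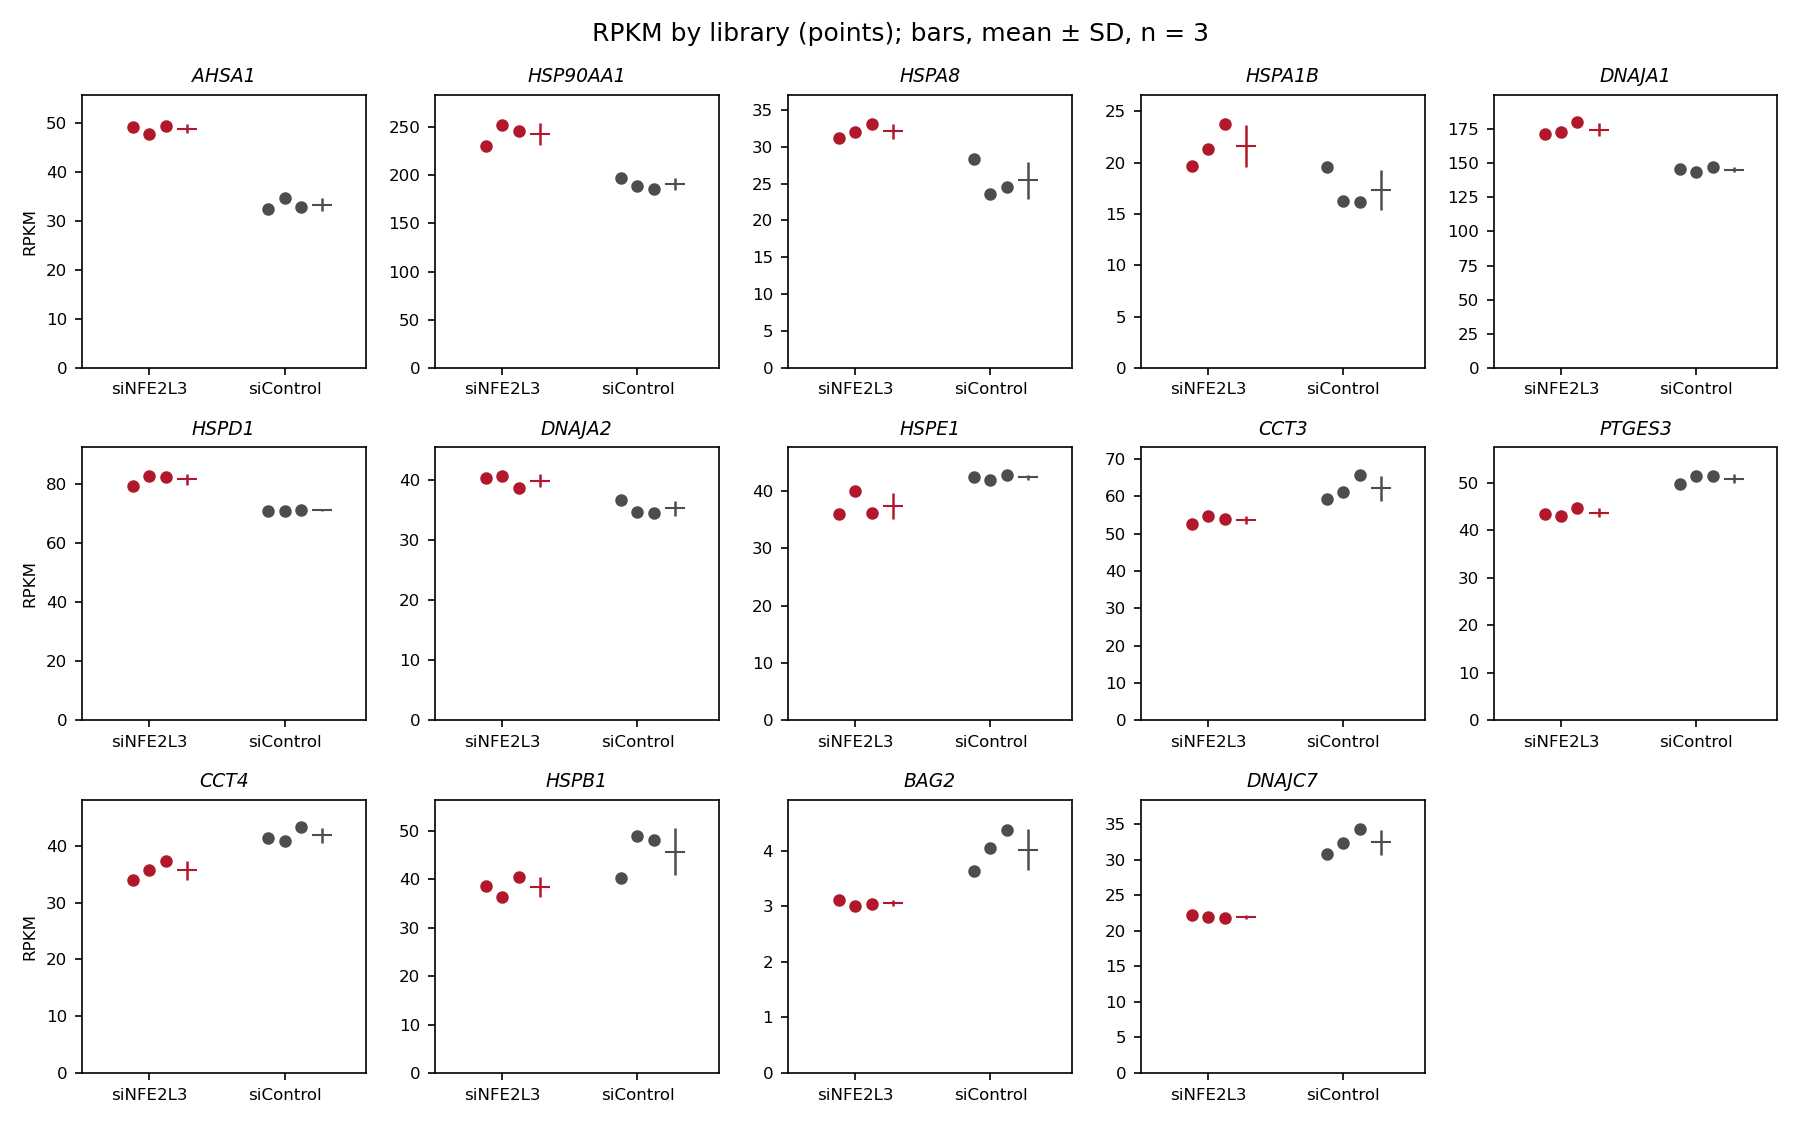
RPKM by library (y axis, from 0) of the 14 members that passed the test with the largest changes, ordered from the largest rise to the largest fall; points are libraries (siNFE2L3 red, siControl grey) and bars the mean ± SD (n = 3). The panels were picked by the test, a choice that favours groups that do not overlap, as in 13 of the 14 panels. In HSPB1 siControl replicate 1 lies among the siNFE2L3 libraries.

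J proteins, which load clients onto HSP70 and start its ATPase cycle, held the largest fall of the members. DNAJC7, a J protein with tetratricopeptide repeats that binds both HSP70 and HSP90, lies on chromosome 17 from 41976433 to 42021376 and had 22.2, 21.9 and 21.7 RPKM in the siNFE2L3 libraries, against 30.7, 32.3 and 34.3 RPKM in the siControl libraries. The siNFE2L3 libraries were close together and all below the siControl libraries, at 67.7% of control (log2 fold change -0.56, standard error 0.0419, adjusted p = 2.88e-10 from edgeR). DNAJC7 shares 484 of its 9373 exon bases with NKIRAS2 and 401 with CNP on the opposite strand, and neither of those genes passed the test (log2 fold changes -0.07 and -0.14). DNAJA1 and DNAJA2 were higher. DNAJA1, a type I J protein of the cytosol on chromosome 9 from 33025211 to 33039907, had 171, 173 and 179.9 RPKM in the siNFE2L3 libraries, against 146, 143 and 147 RPKM in the siControl libraries. Its groups did not overlap (log2 fold change 0.26, standard error 0.0378, adjusted p = 7.68e-06 from edgeR).

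DNAJA2 also rose, with 40.3, 40.6 and 38.7 RPKM in the siNFE2L3 libraries, against 36.7, 34.6 and 34.5 RPKM in the siControl libraries (log2 fold change 0.18, standard error 0.0404, adjusted p = 0.00168 from edgeR). The RPKM ratio of DNAJA1 to DNAJA2 overlapped between the groups, with means of 4.38 ± 0.233 in siNFE2L3 cells and 4.12 ± 0.138 in siControl cells (SD, n = 3 each, two-sided exact permutation test, p = 0.3). Of the type II J proteins, DNAJB6, which suppresses aggregation of polyglutamine proteins, was at 42.1 ± 0.875 RPKM in siNFE2L3 cells and 45.7 ± 0.933 RPKM in siControl cells (SD, n = 3 each). Its fall passed the test (adjusted p = 0.0185 from edgeR) but not without siNFE2L3 replicate 1 (0.090), siNFE2L3 replicate 3 (0.0544) or siControl replicate 3 (0.0612), nor with upper quartile scaling (0.0615). DNAJB1, the heat-inducible HSP40, was at 22.6 ± 0.111 RPKM in siNFE2L3 cells and 23.6 ± 0.783 RPKM in siControl cells (SD, n = 3 each) and did not pass (log2 fold change -0.06, adjusted p = 0.352 from edgeR). DNAJB4 did not pass either (log2 fold change -0.08, adjusted p = 0.223 from edgeR).

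BAG2, an exchange factor that inhibits the HSP70-bound ubiquitin ligase CHIP, was the second largest fall. It lies on chromosome 6 from 57172326 to 57189833 and had 3.11, 3.01 and 3.04 RPKM in the siNFE2L3 libraries, against 3.63, 4.05 and 4.38 RPKM in the siControl libraries. The groups did not overlap, and the mean was 76.0% of control (log2 fold change -0.40, standard error 0.0634, adjusted p = 3.34e-05 from edgeR). Of its 6651 exon bases, 2842 are shared with RAB23 on the opposite strand, which also fell (log2 fold change -0.15, adjusted p = 0.0177 from edgeR). The library kit keeps the strand, but whether the counting used it is not stated in the sources read here, so reads of BAG2 and RAB23 cannot be told apart there. BAG1 (log2 fold change 0.06, edgeR adjusted p = 0.387) and BAG3, the stress-induced BAG protein of selective autophagy (0.05, adjusted p = 0.497), did not pass.

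The small heat shock proteins hold unfolded proteins without ATP. HSPB1, known as HSP27, lies on chromosome 7 from 76302544 to 76304295 and had 38.6, 36.3 and 40.6 RPKM in the siNFE2L3 libraries, against 40.2, 49.0 and 48.1 RPKM in the siControl libraries. It passed the test as lower (log2 fold change -0.25, standard error 0.0586, adjusted p = 0.00213 from edgeR), although siControl replicate 1 lay within the siNFE2L3 libraries. CRYAB was too low for a firm statement, and a difference was not detectable at this depth (log2 fold change 0.05, standard error 0.186). HSF1 had 11.2, 10.8 and 11.8 RPKM in the siNFE2L3 libraries, against 10.1, 12.5 and 11.6 RPKM in the siControl libraries. Its groups overlapped, and it did not pass (log2 fold change -0.02, adjusted p = 0.844 from edgeR).

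In the mitochondrial set, the partners of the chaperonin went in opposite directions. HSPD1 (HSP60), which forms the folding chamber, had 79.5, 82.8 and 82.4 RPKM in the siNFE2L3 libraries, against 70.9, 71.0 and 71.3 RPKM in the siControl libraries. HSPE1 (HSP10), which forms its lid, had 35.998, 40.0 and 36.2 RPKM in the siNFE2L3 libraries, against 42.5, 42.0 and 42.9 RPKM in the siControl libraries. HSPD1 was thus higher in every siNFE2L3 library (log2 fold change 0.20, standard error 0.0376, adjusted p = 2.59e-04 from edgeR) and HSPE1 lower (log2 fold change -0.18, standard error 0.0458, adjusted p = 0.00375). On chromosome 2, HSPD1 spans 197486581 to 197516737 on the minus strand, and HSPE1 lies within that span on the plus strand from 197499994 to 197503457. The RPKM ratio of HSPD1 to HSPE1 was 2.21, 2.07 and 2.28 in the siNFE2L3 libraries, against 1.67, 1.69 and 1.66 in the siControl libraries, with no overlap (two-sided exact permutation test, p = 0.1).

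Part of this pair is uncertain, since HSPD1 and HSPE1 share 281 exon bases on opposite strands and HSPE1 shares 192 bases with the read-through gene HSPE1-MOB4 of the same strand. HSPE1-MOB4 was also lower, at 78.6 CPM in siNFE2L3 cells and 89.9 in siControl cells (log2 fold change -0.19, adjusted p = 0.00216 from edgeR). HSPA9 (mortalin), the HSP70 of the matrix, was at 194 ± 1.93 RPKM in siNFE2L3 cells and 209 ± 4.95 RPKM in siControl cells (SD, n = 3 each). Its fall (log2 fold change -0.11, adjusted p = 0.0343 from edgeR) lost its call without any 1 of 5 libraries, siNFE2L3 replicates 1, 2 and 3 and siControl replicates 1 and 3, at adjusted p-values from 0.0631 to 0.128, and with upper quartile scaling (0.114). TRAP1, the mitochondrial HSP90, had a log2 fold change of 0.08 and DNAJA3, a mitochondrial J protein, of -0.03, and neither passed (adjusted p = 0.15 and 0.701 from edgeR). TRAP1 shares 1531 of its 5227 exon bases with DNASE1 on the opposite strand.

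**Figure D3:**
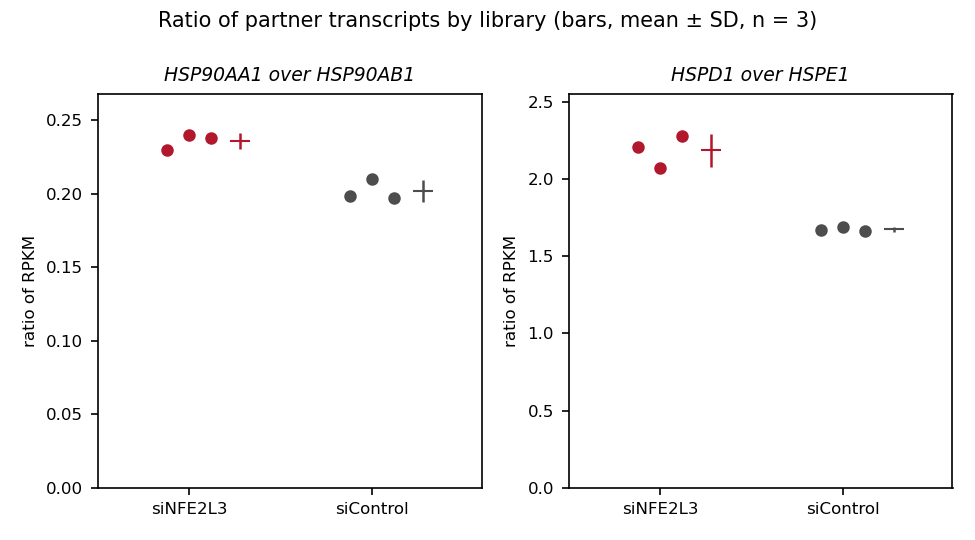
Ratio of RPKM by library (y axis, from 0) of HSP90AA1 to HSP90AB1 (left) and of HSPD1 to HSPE1 (right); points are libraries (siNFE2L3 red, siControl grey) and bars the mean ± SD (n = 3). Both ratios are higher in each siNFE2L3 library, with means of 0.236 and 2.19 in siNFE2L3 cells and 0.202 and 1.67 in siControl cells.

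The 8 subunits of TRiC, which occupy fixed places in each ring, did not move as a unit. CCT3, CCT4 and TCP1 fell, CCT5 rose, and CCT2, CCT6A, CCT7 and CCT8 did not pass. CCT4 had 34.1, 35.8 and 37.4 RPKM in the siNFE2L3 libraries, against 41.5, 40.8 and 43.3 RPKM in the siControl libraries. CCT3 had 52.5, 54.7 and 53.8 RPKM in the siNFE2L3 libraries, against 59.2, 61.2 and 65.7 RPKM in the siControl libraries. Both subunits were below control in every siNFE2L3 library, CCT4 at 85.4% (log2 fold change -0.23, standard error 0.0435, adjusted p = 2.81e-04 from edgeR) and CCT3 at 86.5% (log2 fold change -0.21, standard error 0.0421, adjusted p = 4.96e-04). TCP1, the alpha subunit, was at 37.4 ± 0.594 RPKM in siNFE2L3 cells and 40.3 ± 0.689 RPKM in siControl cells (SD, n = 3 each). Its adjusted p = 0.0436 from edgeR was just under the threshold, and the call was lost without siNFE2L3 replicate 1, 2 or 3 and siControl replicate 2 or 3 (0.0852 to 0.159), with upper quartile scaling (0.119) and with no filter on low counts (0.0565). CCT7 missed the threshold (log2 fold change -0.11, edgeR adjusted p = 0.0568) and passed it without siControl replicate 1 (0.0143), with library totals (0.0275), with limma-voom (0.0491) and with no filter on low counts (0.0341).

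CCT5, the epsilon subunit, had 77.7, 83.4 and 83.3 RPKM in the siNFE2L3 libraries, against 72.5, 72.4 and 76.0 RPKM in the siControl libraries. Its groups did not overlap (log2 fold change 0.15, standard error 0.0400, adjusted p = 0.00762 from edgeR), and the call was lost without siNFE2L3 replicate 2 (adjusted p = 0.0507 from edgeR) and siNFE2L3 replicate 3 (0.0606). CCT5 shares 1757 of its 5839 exon bases with CTD-2256P15.4 on the opposite strand, which did not pass the test (log2 fold change 0.05). Set against the mean of the 8 subunits in the same library, CCT5 was at 1.43, 1.47 and 1.47 in the siNFE2L3 libraries, against 1.28, 1.26 and 1.27 in the siControl libraries. CCT4 was at 0.627, 0.630 and 0.660 of that mean in the siNFE2L3 libraries, against 0.730, 0.712 and 0.721 in the siControl libraries. The RPKM levels of the subunits were uneven in both groups, from 0.327 for CCT2 to 1.44 for CCT6A in siControl cells, and depend on the annotated exon lengths. The groups did not overlap in relative level for CCT3, CCT4, CCT5, CCT6A, CCT7 and TCP1 (two-sided exact permutation test, p = 0.1 each, 8 subunits compared). The groups nearly touched for CCT7, with siNFE2L3 replicate 2 at 1.357 and siControl replicate 1 at 1.358. For TCP1 the nearest were siNFE2L3 replicate 1 at 0.6762 and siControl replicate 3 at 0.6778. As the relative levels of the subunits sum to a fixed total, they are not independent of each other.

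**Figure D4:**
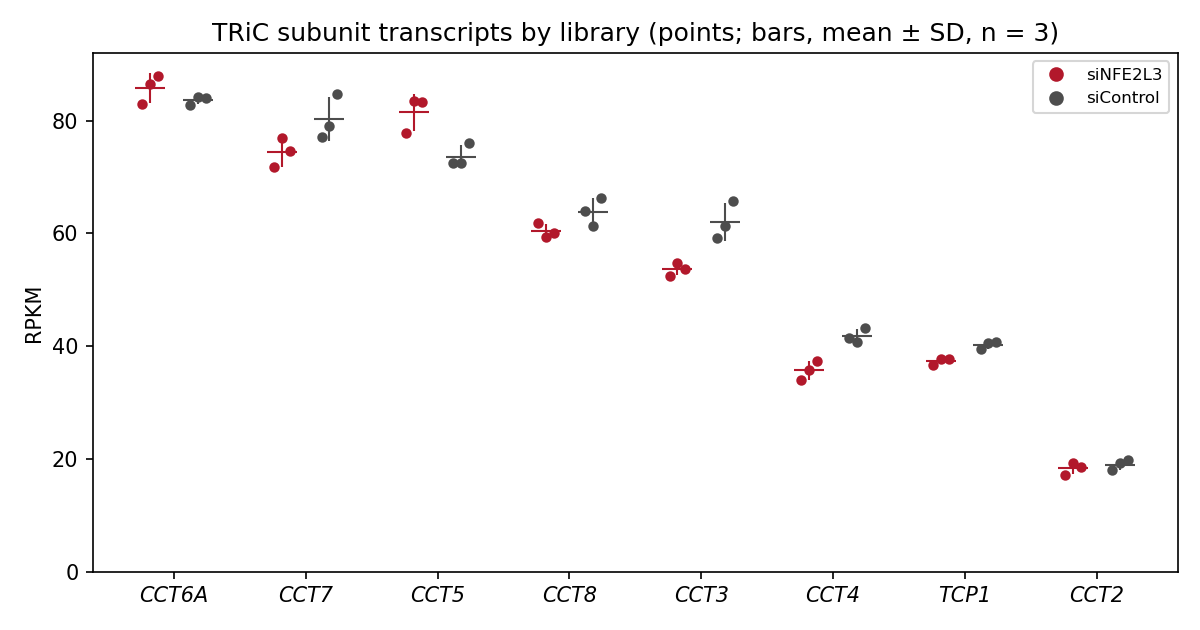
RPKM by library (y axis, from 0) of the 8 TRiC subunits, ordered by their mean in siControl cells; points are libraries (siNFE2L3 red, siControl grey) and short bars the mean ± SD (n = 3). CCT5 is higher and CCT3, CCT4, CCT7 and TCP1 are lower in each siNFE2L3 library, although CCT7 did not pass the test.

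The promoters of the members were searched for the letters of the heat shock element. Known HSF1 targets stood among the members that rose, such as HSPA8 and HSP90AA1, and among those that fell, such as HSPB1 and HSPE1. Others did not pass, such as DNAJB1, HSPH1, BAG3 and HSPA1A. These names are examples from no fixed list, and targets were not counted by direction. RefSeq start windows of GRCh38.p14, which run from 250 bases before to 50 bases after an annotated start, were available for 33 of the 36 members in 45 windows. CRYAB, CCT6A and HSF1 had none. The element was taken as GAA and TTC units that alternate with 2 bases between them, on either strand. At least 3 such units in a row were found in windows of 5 of 10 higher members (HSPA8, HSPD1, HSP90AA1, HSP90AB1 and DNAJA1), 1 of 11 lower members (DNAJB6) and 0 of 12 members that did not pass, against 0.608% of all 27305 genes with a window. The HSPD1 window with its run ends at 197500090 on chromosome 2, and the window of HSPE1, a lower member, begins at 197500129. This run near HSPE1 was therefore counted for HSPD1 only, so the split by direction depends in part on the window edges. AHSA1, CDC37, DNAJA2, CCT5 and HSPA1B rose without a run of 3 units in these windows. With 2 units, GAANNTTC or TTCNNGAA, which every run of 3 units also contains, the counts were 6 of 10 higher, 6 of 11 lower and 5 of 12 other members, against 16.2% of all genes. The core letters of the antioxidant response element, TGACNNNGC, which CNC factors bind with small MAF proteins, were in windows of 3 of 10 higher members, 4 of 11 lower and 1 of 12 other members, against 16.1% of all genes. The letters CCAAT were searched as well. Windows of 3 of 10 higher, 2 of 11 lower and 6 of 12 other members held them, against 39.7% of all genes. A match is a description of the letters and not a binding site. As the list holds known HSF1 targets and the motifs were chosen after values were seen, the split by direction was not tested. Nothing is read from it.

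The matched stretches are shown because exact matches set the members with 3 or 4 units apart from the copies HSPA1A and HSPA1B, whose windows hold 2. Units with a changed letter were not searched for, so a lack of exact matches does not show that an element is absent. Each stretch is printed 5′ to 3′ on the strand of its gene with up to 8 bases on either side, the matched units with their spacers are in capitals, and the numbers count bases from the annotated start, with negative values before it.
HSPD1, -245 to -228: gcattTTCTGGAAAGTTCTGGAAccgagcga
HSP90AB1, -165 to -153: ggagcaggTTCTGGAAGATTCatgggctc
HSP90AB1, -112 to -100: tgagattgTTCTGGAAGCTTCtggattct
DNAJB6, -131 to -119: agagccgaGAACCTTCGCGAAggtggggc
DNAJA1, 4 to 16: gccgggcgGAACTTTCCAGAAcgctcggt
HSPA8, -230 to -218: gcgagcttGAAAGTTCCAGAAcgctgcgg
HSPA8, -55 to -43: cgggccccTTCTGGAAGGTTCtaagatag
HSP90AA1, -88 to -76: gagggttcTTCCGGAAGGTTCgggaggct
HSPA1A, -106 to -99: aaaccctgGAATATTCccgacctg
HSPA1B, -105 to -98: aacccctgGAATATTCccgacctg

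HSPD1 holds 4 units in a row and HSP90AB1 and HSPA8 hold separate runs. The stretch of DNAJA1 lies just after the annotated start. The matches of HSPA1A and HSPA1B have the same letters, and HSPA1B rose (adjusted p = 6.67e-04 from edgeR), whereas HSPA1A did not pass (adjusted p = 0.0816). The RPKM ratio of HSPA1A to HSPA1B overlapped between the groups, at 0.172 ± 0.0182 in siNFE2L3 cells and 0.188 ± 0.0116 in siControl cells (SD, n = 3 each, two-sided exact permutation test, p = 0.2, 5 ratios computed). In GRCh38.p14 the windows are chr2:197499791-197500090 (minus strand) for HSPD1, chr6:44247693-44247992 (plus strand) for HSP90AB1, chr7:157336754-157337053 (plus strand) for DNAJB6, chr9:33025023-33025322 (plus strand) for DNAJA1, chr11:123062087-123062386 (minus strand) for HSPA8, chr14:102086995-102087294 (minus strand) for HSP90AA1, chr6:31815293-31815592 (plus strand) for HSPA1A, chr6:31827488-31827787 (plus strand) for HSPA1B. Those of HSP90AB1, HSP90AA1 and HSPD1 are each 1 of at least 2 annotated starts of the gene.

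Beyond the members, 75 other genes of the cytosolic and mitochondrial chaperone network were listed, of which 69 were tested. In siNFE2L3 cells 14 passed the edgeR test at 0.05 as higher and 14 as lower, and 41 did not pass, where 12.7% of all tested genes were higher and 14% lower. Their median log2 fold change was -0.0242. HSPA6, HSPA12B, HSPB2, HSPB3, HSPB9 and CRYAA were not tested, with at most 8 reads in any library. HSPA6 is a strictly heat-inducible HSP70, and it had 6, 8 and 2 reads in the siNFE2L3 libraries, against 2, 8 and 7 reads in the siControl libraries.

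Of the wider genes that passed the test, the largest rises were in low transcripts. DNAJA4, a J protein, had 58, 82 and 41 reads in the siNFE2L3 libraries, against 39, 37 and 31 reads in the siControl libraries (log2 fold change 0.77, adjusted p = 0.0276 from edgeR). DNAJC28 had 90, 72 and 82 reads in the siNFE2L3 libraries, against 40, 70 and 36 reads in the siControl libraries (log2 fold change 0.77, adjusted p = 0.0134 from edgeR). Both calls rested on few reads and did not hold in every fit without 1 library. That of DNAJA4 was lost without siNFE2L3 replicate 2 (adjusted p = 0.229 from edgeR), siControl replicate 2 (0.0605) and siControl replicate 3 (0.0979), and that of DNAJC28 without siNFE2L3 replicate 1 (0.0581), siNFE2L3 replicate 3 (0.0567) and siControl replicate 3 (0.0813). HSPA2, an HSP70 best known from the testis, rose by less (log2 fold change 0.40, edgeR adjusted p = 0.0189) and lost its call without siNFE2L3 replicate 2 (0.140) and siControl replicate 2 (0.0907). The heat shock factor HSF4 was higher (log2 fold change 0.38, edgeR adjusted p = 0.00113), and it shares 1059 of its 3377 exon bases with RP11-5A19.5 of the same strand, which also rose (log2 fold change 0.45).

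Of the wider genes that passed the test, the largest falls were in DNAJB5, TXNDC9, HSPB8 and DNAJC15. DNAJB5, a type II J protein, had 3.63, 3.51 and 3.59 RPKM in the siNFE2L3 libraries, against 4.82, 4.88 and 5.11 RPKM in the siControl libraries (log2 fold change -0.46, standard error 0.0546, adjusted p = 4.75e-07 from edgeR). TXNDC9, a phosducin-like cofactor of TRiC, was at 6.16 ± 0.408 RPKM in siNFE2L3 cells and 8.27 ± 0.122 RPKM in siControl cells (SD, n = 3 each, log2 fold change -0.43, adjusted p = 7.63e-06 from edgeR). HSPB8, the small heat shock protein that pairs with BAG3, was at 2.47 ± 0.137 RPKM in siNFE2L3 cells and 3.30 ± 0.357 RPKM in siControl cells (SD, n = 3 each, log2 fold change -0.42, adjusted p = 0.00107 from edgeR), while BAG3 itself did not pass. DNAJC15, a J protein of the inner mitochondrial membrane, had a log2 fold change of -0.34 (adjusted p = 0.00218 from edgeR). In the group of prefoldin and TRiC cofactor genes, 4 of 10 were lower and 1 was higher, beside 14% lower and 12.7% higher of all tested genes, and with 10 genes nothing is read from this count.

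The other co-chaperones of HSP90 and HSP70 moved both ways. They were described after their values were seen. Of 12 other HSP90 co-chaperone genes 4 were higher and 3 lower, beside 12.7% and 14% of all tested genes. Those lower were PPID, the cyclophilin known as Cyp40 (log2 fold change -0.30, edgeR adjusted p = 3.50e-06), TTC4 (-0.24, 4.96e-04) and the phosphatase PPP5C (-0.14, 0.0254). Those higher were AHSA2, the myosin chaperone UNC45A (log2 fold change 0.22, edgeR adjusted p = 2.73e-04), NUDC (0.14, 0.00541) and the immunophilin FKBP5 (0.13, 0.0251). The call of PPP5C was lost without siNFE2L3 replicate 1 (edgeR adjusted p = 0.126), siNFE2L3 replicate 2 (0.0769) and siControl replicate 3 (0.0808) and with upper quartile scaling (0.0585), that of NUDC without siNFE2L3 replicate 3 (0.0512), and that of FKBP5 without siNFE2L3 replicate 1 (0.0649), siNFE2L3 replicate 3 (0.115) and siControl replicate 3 (0.120) and with no filter on low counts (0.0503). Of 6 other HSP70 exchange and binding factors, ST13 was higher and 5 did not pass. ST13, the HSP70 co-chaperone known as HIP, had 147, 147 and 153 RPKM in the siNFE2L3 libraries, against 124, 119 and 120.0 RPKM in the siControl libraries. AHSA2, named for its likeness to AHSA1, had 11.0, 11.5 and 11.5 RPKM in the siNFE2L3 libraries, against 9.48, 8.91 and 8.80 RPKM in the siControl libraries. Neither gene overlapped between the groups, and both were higher (log2 fold changes 0.30 and 0.33, adjusted p = 1.14e-06 and 2.95e-06 from edgeR). AHSA2 shares 3263 of its 8382 exon bases with USP34 on the opposite strand. TTC4 shares 1848 of its 3527 exon bases with the read-through gene MROH7-TTC4 of the same strand. Means of MROH7-TTC4 were 1596.3 reads in siNFE2L3 cells and 1931.3 in siControl cells, and the reads of the shared bases cannot be told apart. PPID shares 490 of its 2509 exon bases with ETFDH on the opposite strand, with means of 521.7 reads in siNFE2L3 cells and 634.3 in siControl cells.

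**Figure D5:**
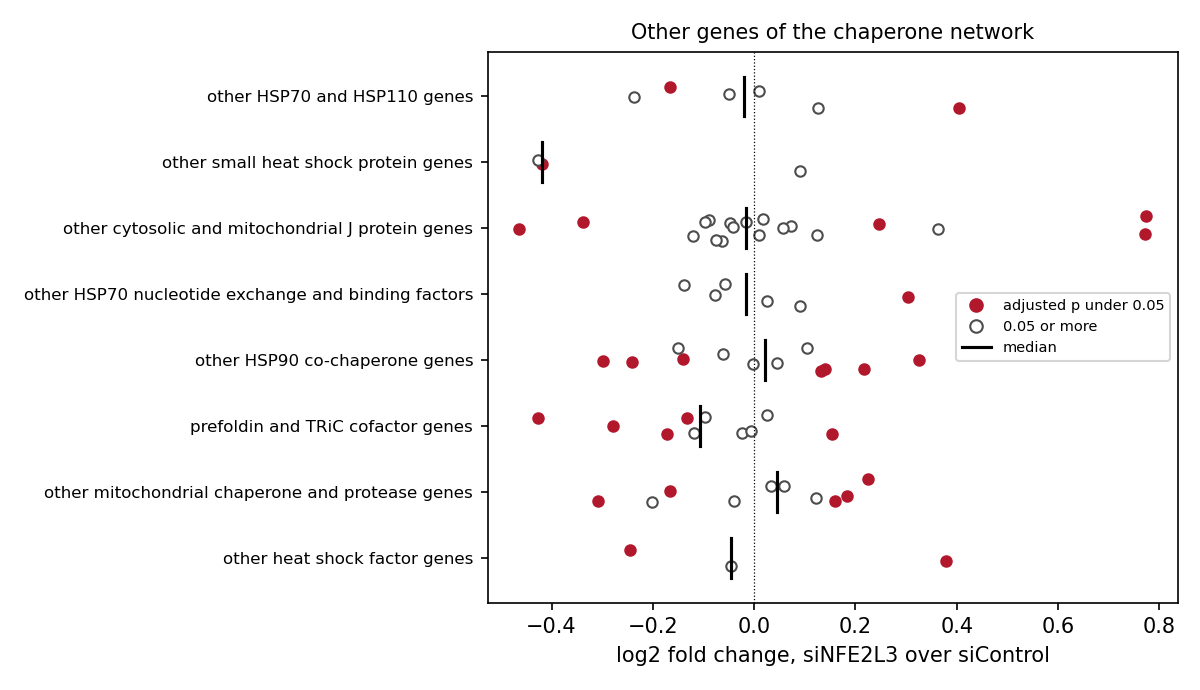
Log2 fold change (x axis, siNFE2L3 over siControl, n = 3 libraries each) of the 69 tested genes of the wider chaperone list by group, 1 point per gene, filled red where the edgeR test was passed at 0.05 and open otherwise. Black bars mark the group medians, height within a row only spreads the points, and the points run from -0.46 for DNAJB5 to 0.77 for DNAJA4.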

How the data were processed

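RNA of 3 siNFE2L3 and 3 siControl libraries of 786-O cells was sequenced as polyA-selected, UMI-tagged libraries. Per the submitters' processing notes and the supplementary methods, the authors used Trimmomatic 0.36 for trimming, merged reads that shared a molecular identifier into consensus reads, aligned these by STAR 2.5.3a to the Ensembl human genome (GRCh38 coordinates) and obtained exon counts per gene from featureCounts (Subread 1.5.1). The deposited values are raw counts, given beside each gene's total exon length. Even numbers made up 67.6% to 69.9% of counts under 30 and 52.2% to 53.5% of higher counts, so halved counts were tried as an alternative.

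The 19916 genes kept by filterByExpr (minimum count 10) were scaled by TMM and tested in R 4.3.3 with the quasi-likelihood test of edgeR 4.0.16 without a block, with Benjamini-Hochberg adjustment over all tested genes. CPM and RPKM used TMM-adjusted library sizes. The standard error was taken as the log2 fold change over the square root of F. The procedure was tested on simulated data. Alternatives used DESeq2 1.42.0, limma 3.58.1, other scalings and filters, halved counts, summed HSPA1 copies, a replicate block and leaving out each library. No 2 libraries of a group agreed within sampling noise.

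The members and gene lists were chosen with earlier results of these data known. Named genes were all 36 members, with library values for the 14 largest called changes and, chosen after values were seen, HSP90AB1, CCT5 and HSF1, and the 8 largest called changes of the wider list. The other co-chaperones, the ratios and the promoter motifs were chosen after values were seen.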

Additional observations from a re-analysis of the deposited data

How the results depend on the processing

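With upper quartile scaling 7 members were lower and the median log2 fold change of the members was -0.0089, and with library totals the median was -0.0409. The median of all tested genes moved alike, at 0.0193 with upper quartile scaling and -0.0125 with library totals, against -0.0007 with TMM. Leaving out each library in turn gave 8 to 10 higher members, 7 to 11 lower members and a median of -0.0609 to -0.0085. Over all tested genes the calls in these fits ran from 4176 without siNFE2L3 replicate 3 to 5512 without siControl replicate 1. With all 6 libraries 5320 genes were called, so a lost call of a member is not particular to the members. The log2 fold changes that changed sign belonged to genes that did not pass the test. HSF1 was at 0.0001 with upper quartile scaling, a change of sign that the shift of all genes under that scaling accounts for. Over the fits without 1 library, HSF1 ran from -0.0975 to 0.0477, CRYAB from -0.1148 to 0.2139 and DNAJA3 from -0.0622 to 0.0086. The numbers of the replicates did not pair the libraries, with same-number correlations of -0.107, -0.218 and -0.145 over 5000 genes. With the replicate block 9 members were higher and 9 lower, and HSP90AB1, HSPA9 and TCP1 did not pass (adjusted p = 0.0534, 0.0739 and 0.0756 from edgeR). The fit with the block called 4782 of all tested genes. The counts of the wider list stayed within 1.5 times under the alternatives run, and no member reached 2-fold with an unadjusted p under 0.05 in any of them. Depth limited CRYAB, DNAJA4 and DNAJC28, which rested on at most 118 reads per library.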
